A study of Homo sapiens with 6 samples.

Results

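The ADAM and ADAMTS metalloproteases were examined in A549, an established human line of lung adenocarcinoma cells, after loss of RAVER1, which encodes an RNA-binding partner of the splicing regulator PTBP1. The members were all protein-coding genes whose symbol is ADAM, ADAMTS or ADAMTSL followed by digits, which gave 44 of the 60624 genes in the count table: 20 ADAM, 19 ADAMTS and 5 ADAMTSL genes. PolyA RNA was sequenced from 3 libraries of A549 cells carrying a CRISPR/Cas9 deletion of RAVER1 and 3 libraries of parental A549 cells, labelled WT. No other allele or agent is named for either group. The 3 libraries of a condition are described as biological replicates. The knockout titles share the name KO2 and do not say whether it marks a single clone, so the p-values reflect the spread among these 6 libraries, not among knockout lines made separately.

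ADAM proteins are membrane-anchored relatives of snake venom metalloproteases, with a prodomain, a metalloprotease domain, a disintegrin domain and a cytoplasmic tail. The catalytically active ones release the outer parts of growth factors, cytokines, adhesion molecules and receptors from the cell surface, and ADAM10 and ADAM17 are the best-known of these sheddases. Others have lost the zinc-binding site and act as adhesion proteins. ADAMTS proteins are secreted, carry thrombospondin repeats that hold them in the matrix, and process proteoglycans such as versican, fibrillar procollagens and von Willebrand factor. ADAMTSL proteins share those repeats but have no protease domain and are bound to fibrillin microfibrils.

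The libraries held 31200927 to 39910127 counts in knockout cells and 29811747 to 34359060 counts in parental cells. RAVER1 itself had counts of 110, 112 and 79 in knockout replicates 1, 2 and 3, against 2510, 1996 and 2285 in parental replicates 1, 2 and 3. The 6 epithelial markers KRT7, KRT8, KRT18, KRT19, CDH1 and EPCAM summed to between 6417 and 7095 CPM (counts scaled to the size of each library) in knockout libraries and between 8480 and 9335 CPM in parental libraries, and 5 of them were lower and KRT7 higher in knockout cells. The 6 leukocyte markers summed to 8.87 to 9.47 CPM in knockout and 9.33 to 10.9 CPM in parental libraries. CD14 (4.51 CPM in knockout, 5.49 CPM in parental cells) and ITGAM (4.597 CPM in knockout, 4.555 CPM in parental cells) were tested and did not pass the threshold, PTPRC was at 0.027 CPM in knockout and 0.019 CPM in parental cells, and CD3E had no read. None of the 5 endothelial or 5 germ cell markers was high enough to be tested. Among the 7 fibroblast markers DCN and FAP had no read in any library, and the summed level of the list was 17.56 to 18.98 CPM in knockout and 9.71 to 11.7 CPM in parental libraries. THY1 (17.1 CPM in knockout, 9.95 CPM in parental cells) made up most of it, and THY1 and PDGFRA, the 2 of the 7 that were tested, were both higher in knockout cells. PDGFRA (0.58 CPM in knockout, 0.29 CPM in parental cells) reached the level of the low-count filter in 3 knockout libraries and 1 parental library.

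The start regions of the 3 members that changed at least 2-fold and have an entry in the RefSeq promoter table (GRCh38.p14) are shown here because these are 3 of the 4 members that rose by that much. Each line gives the 250 bases before the RefSeq start on the gene's own strand. Capitals mark matches, on either strand, to the letters TGANTCA (the AP-1 motif) or GGGCGG (the GC box). CAGGTG (an E-box bound by Snail factors) and TATAAA (the TATA box) were searched for as well, and none of the 4 motifs overlapped another here.
ADAMTS12: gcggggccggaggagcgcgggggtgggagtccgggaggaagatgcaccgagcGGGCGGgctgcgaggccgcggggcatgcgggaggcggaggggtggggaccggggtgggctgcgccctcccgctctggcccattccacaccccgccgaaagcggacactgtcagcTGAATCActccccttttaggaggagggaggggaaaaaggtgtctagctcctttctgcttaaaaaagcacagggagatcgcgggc
ADAM23: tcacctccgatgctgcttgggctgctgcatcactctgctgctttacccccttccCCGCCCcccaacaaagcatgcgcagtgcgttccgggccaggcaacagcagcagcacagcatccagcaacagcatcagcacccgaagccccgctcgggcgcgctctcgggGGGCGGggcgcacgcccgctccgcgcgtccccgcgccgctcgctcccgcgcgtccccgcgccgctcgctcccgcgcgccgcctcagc
ADAMTSL4: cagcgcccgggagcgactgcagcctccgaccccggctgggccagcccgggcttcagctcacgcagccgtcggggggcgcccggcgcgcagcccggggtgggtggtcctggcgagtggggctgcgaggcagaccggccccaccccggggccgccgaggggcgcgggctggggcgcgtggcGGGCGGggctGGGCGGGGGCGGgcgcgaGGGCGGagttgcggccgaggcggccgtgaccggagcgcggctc
The windows are chr5:33891991-33892240 on the minus strand for ADAMTS12, chr2:206443282-206443531 on the plus strand for ADAM23 and chr1:150549158-150549407 on the plus strand for ADAMTSL4. They held 68.4%, 73.6% and 83.6% G or C, against a median of 58% over 27305 promoter windows of the same length. The ADAMTS12 window held the AP-1 letters once, beginning 84 bases before the start, and these letters occur in 6.6% of all windows. Of 15 tested members with a window, ADAMTS12 was the one that held them. The GC box letters occurred 1 time in the ADAMTS12 window, 2 times in that of ADAM23 and 4 times in that of ADAMTSL4, and occur in 42.3% of all windows and in those of 13 of the 15 tested members. The E-box letters were absent from the 3 windows, and among tested members they occurred in those of ADAM19 and ADAM8, against 17.5% of all windows. The TATAAA letters were also absent from the 3 windows and occur in 11.1% of all windows, and in that of ADAMTS10 among tested members. In GENCODE release 29, the farthest upstream transcript start lies 202 bases before the RefSeq start for ADAMTS12 and 39 for ADAMTSL4, inside these windows.

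Of the 44 members, 22 had enough reads to be tested, 13 had a few reads and 9 had none in any library. Of the 22 tested, 7 were higher and 6 lower in knockout cells at an adjusted p under 0.05 in edgeR. In the whole table of 16652 tested genes 41.4% passed that threshold, 21.3% upward and 20.1% downward. A change of at least 2-fold was seen in 5 tested members, ADAMTS12, ADAM23, ADAMTS1 and ADAMTSL4 upward and ADAMTS9 downward, against 6.83% of all tested genes. ADAMTSL4 was below 2-fold without knockout replicate 1 (0.95), parental replicate 1 (0.99) or parental replicate 3 (0.94), and kept its call in each. The groups did not overlap for 15 of the 22, against 50.2% of all tested genes. ADAMTS12 and ADAMTS1 reached the low-count filter through the knockout libraries alone, so these counts describe the tested members and are no evidence about the family. The log2 fold changes of the tested members ran from -3.69 to 7.77, with a median of 0.20, against 0.0019 over all tested genes. Since these are bulk libraries, a different number of expressing cells and a different amount of RNA per cell cannot be told apart.

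**Figure D1:**
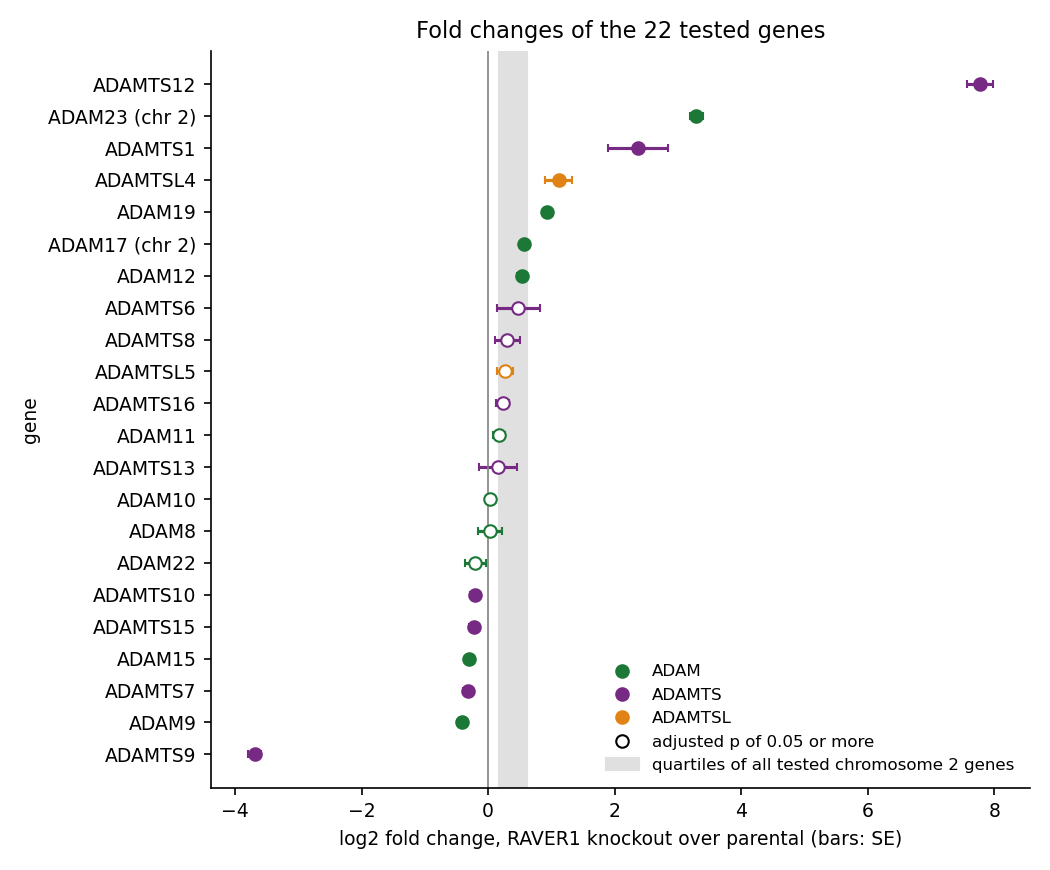
Log2 fold change, RAVER1 knockout over parental, of the 22 tested genes, with bars for the SE and open symbols where the edgeR adjusted p was 0.05 or more; the grey band spans the quartiles (0.17 to 0.62) of all tested chromosome 2 genes. ADAMTS12 (7.77) and ADAM23 (3.29) stand farthest to the right and ADAMTS9 (-3.69) farthest to the left.

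Among the ADAM genes, 10 of 20 were tested, with a median log2 fold change of 0.10. In knockout cells 4 were higher and 2 lower, against 21.3% and 20.1% of all tested genes. Of the 4 higher, ADAM17 and ADAM23 lie on chromosome 2, where 66.8% of tested genes were called higher. The sheddases were the most abundant. Per kilobase of gene length, ADAM9 was the highest in both groups, at 28.03 ± 1.9 CPM per kilobase in knockout and 37.5 ± 1.6 CPM per kilobase in parental cells (SD, n = 3 each). ADAM15 ranked 2 in both, at 14.3 ± 1.1 in knockout and 17.7 ± 0.63 CPM per kilobase in parental cells. In knockout cells ADAM19 (11.3 ± 0.36 CPM per kilobase) came next, before ADAM10 (8.55 ± 0.64) and ADAM17 (7.57 ± 0.34). In parental cells ADAM10 (8.34 ± 0.45) came next, before ADAM19 (5.91 ± 0.29) and ADAM17 (5.13 ± 0.15). The other tested ADAM genes were at 2.86 CPM per kilobase or less in both groups.

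ADAM19, also called meltrin beta and known for shedding neuregulin in the mouse, had the largest rise among the tested ADAM genes with a zinc-binding site. It had 90.3, 84.9 and 86.5 CPM in knockout replicates 1, 2 and 3, against 46.2, 43.1 and 47.4 CPM in parental replicates 1, 2 and 3. The lowest knockout library was well above the highest parental one. The log2 fold change was 0.94 (SE 0.052), with an edgeR adjusted p of 3.71e-11. ADAM19 lies on chromosome 5 (157395534 to 157575775, hg38, minus strand) and shares 62 exon bases with CYFIP2 on the opposite strand, which stood at -0.094 (edgeR adjusted p 0.12).

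ADAM17, the enzyme that releases TNF and several EGF receptor ligands, had 77.3, 84.5 and 81.8 CPM in knockout replicates 1, 2 and 3, against 53.3, 56.6 and 55.2 CPM in parental replicates 1, 2 and 3. The groups did not overlap, and the log2 fold change was 0.56 (SE 0.051, edgeR adjusted p 3.83e-08). ADAM17 is on chromosome 2 (9488486 to 9556732, minus strand), whose tested genes as a body were shifted upward, with a median log2 fold change of 0.42, quartiles of 0.17 and 0.62, and 66.8% of 1125 genes called higher. The rise of ADAM17 lies inside those quartiles, and 360 chromosome 2 genes had a larger log2 fold change. The part of that shift in the rise of ADAM17 was not tested. Its exons overlap those of IAH1 on the opposite strand by 1323 bases, and IAH1 was 0.49 (SE 0.054) higher on the log2 scale. The strand setting of the counting is not given in the sources used here, so reads of the shared stretch may not be separable.

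ADAM12, or meltrin alpha, a protease of placenta, muscle and tumour stroma, rose by 0.53 (SE 0.083, edgeR adjusted p 3.59e-05) on the log2 scale. Its values were 11.33, 10.96 and 12.02 CPM in knockout replicates 1, 2 and 3, against 8.14, 7.64 and 7.88 CPM in parental replicates 1, 2 and 3. The knockout libraries were all above the parental ones.

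ADAM9 and ADAM15, the most abundant members per kilobase, fell. ADAM9, a broadly expressed sheddase, had 182, 209 and 199.7 CPM in knockout replicates 1, 2 and 3, against 252, 274 and 266 CPM in parental replicates 1, 2 and 3. Every knockout library was below every parental one, and the log2 fold change was -0.42 (SE 0.050, edgeR adjusted p 1.42e-06). ADAM15, whose disintegrin domain carries an integrin-binding RGD motif in the human protein, had 101, 87.0 and 95.1 CPM in knockout replicates 1, 2 and 3, against 119, 112 and 118 CPM in parental replicates 1, 2 and 3. Its groups did not overlap either (log2 fold change -0.30, SE 0.053, edgeR adjusted p 1.43e-04). ADAM15 shares 306 exon bases with DCST1 on the same strand, and DCST1 was not among the tested genes. ADAM9 and ADAM15 together had 291.5 ± 6.9 CPM in knockout and 380.0 ± 7.7 CPM in parental cells, and ADAM17 and ADAM19 together 168 ± 0.91 CPM in knockout and 101 ± 1.8 CPM in parental cells (SD, n = 3 each).

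ADAM10, which makes the activating cut in Notch and sheds E-cadherin and the amyloid precursor protein, had 125, 145 and 139.7 CPM in knockout replicates 1, 2 and 3, against 126, 140.5 and 133 CPM in parental replicates 1, 2 and 3. The groups overlapped, with a log2 fold change of 0.036 (SE 0.054, edgeR adjusted p 0.646). ADAM8, a sheddase known from leukocytes, was at 1.79 ± 0.39 CPM in knockout and 1.77 ± 0.28 CPM in parental cells (SD, n = 3 each), and its groups overlapped too (log2 fold change 0.025, SE 0.19).

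The members that lack the zinc-binding site are represented by ADAM23, ADAM22 and ADAM11, neural adhesion proteins that bind LGI family proteins. ADAM23 had 19.03, 17.8 and 18.3 CPM in knockout replicates 1, 2 and 3, against 1.78, 2.11 and 1.75 CPM in parental replicates 1, 2 and 3. The 2 sets of libraries were far apart, and the log2 fold change was 3.29 (SE 0.10), a 9.78-fold rise with an edgeR adjusted p of 6.91e-15. ADAM23 is the other member on chromosome 2 (206443539 to 206621130, plus strand). Of the 1125 tested genes of that chromosome, 1 had a larger log2 fold change. ADAM22 had 2.24 ± 0.36 CPM in knockout and 2.56 ± 0.44 CPM in parental cells, and ADAM11 7.98 ± 0.73 CPM in knockout and 7.12 ± 0.50 CPM in parental cells (SD, n = 3 each). Neither passed the threshold (log2 fold changes -0.20, SE 0.17, and 0.17, SE 0.098), and the groups overlapped for both.

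**Figure D2:**
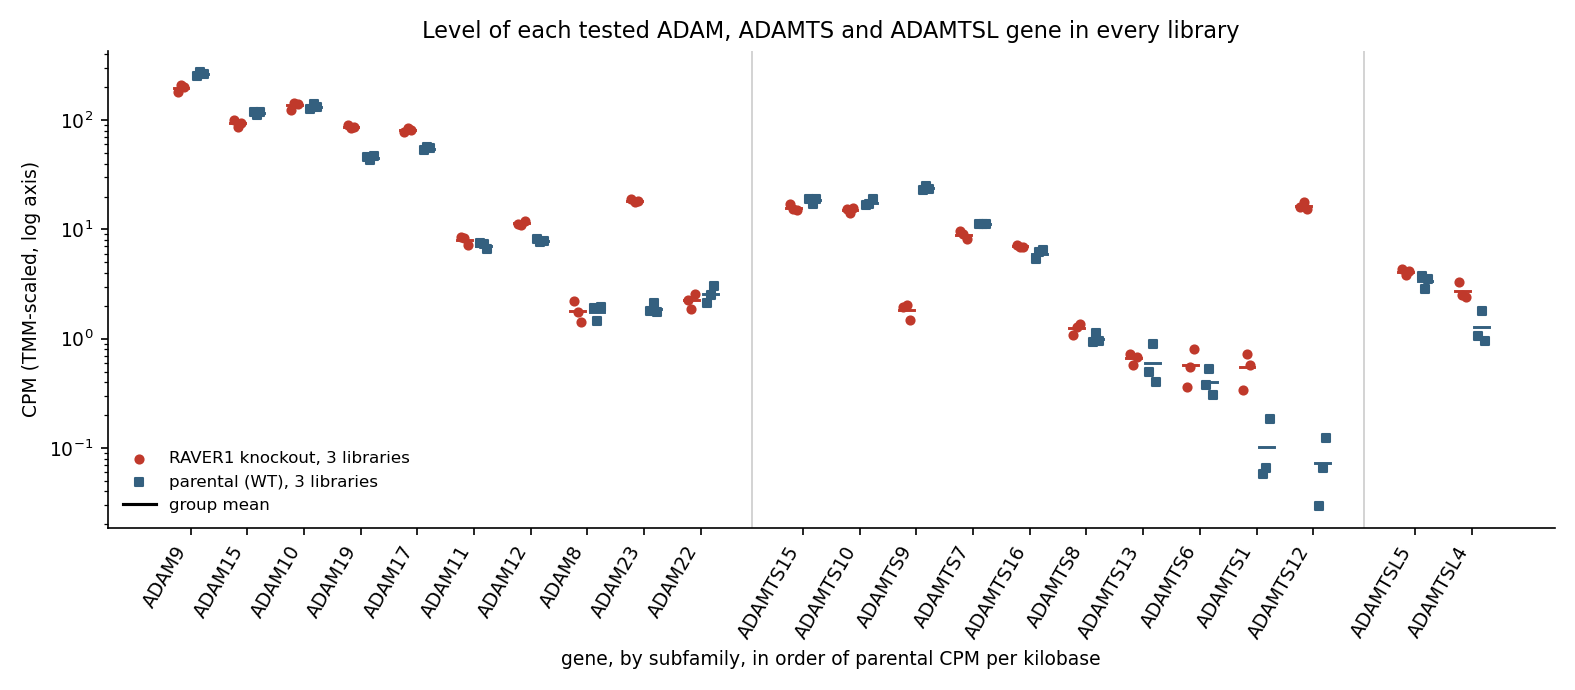
CPM of each tested gene in every library on a log axis, with RAVER1 knockout libraries as red circles left of the parental libraries as blue squares and a line at each group mean; genes are ordered within a subfamily by parental CPM per kilobase, and since CPM does not correct for gene length, heights compare libraries of 1 gene. The ADAMTS12 and ADAMTS9 groups are the farthest apart, in opposite directions.

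The other 10 ADAM genes were not tested. ADAM2, ADAM7, ADAM18 and ADAM30, genes of the male reproductive tract, had no read in any library, where 3 reads, the limit that a count of 0 allows, correspond to 0.0754 to 0.0987 CPM per library, covering counting error only. ADAM32, ADAM21, ADAM20, ADAM29, ADAM28 and ADAM33 had at most 11 reads in a library. ADAM28, known from lymphocytes, had 1, 0 and 0 reads in knockout replicates 1, 2 and 3, against 2, 4 and 1 reads in parental replicates 1, 2 and 3.

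Among the ADAMTS genes, 10 of 19 were tested. In knockout cells 2 were higher and 4 lower, against 21.3% and 20.1% of all tested genes. The 2 higher ones, ADAMTS12 and ADAMTS1, reached the low-count filter through the knockout libraries alone. The median log2 fold change of the 10 was 0.20, and -0.21 over the 7 ADAMTS genes with at least 1 CPM in 3 libraries. The sign of the median therefore depends on the low-count genes. The largest rise and the largest fall were those of ADAMTS12 and ADAMTS9. ADAMTS12, which cleaves cartilage oligomeric matrix protein, had 623, 711 and 480 reads in knockout replicates 1, 2 and 3, against 1, 2 and 4 reads in parental replicates 1, 2 and 3. That is 16.1, 17.9 and 15.5 CPM in the knockout libraries, against 0.029, 0.066 and 0.12 CPM in the parental ones. The gene was at the edge of detection in parental cells and present at a moderate level in every knockout library. The log2 fold change was 7.77 (SE 0.20, edgeR adjusted p 8.26e-16). It rests on 7 parental reads, and it was 8.36 without parental replicate 3 and 7.38 without parental replicate 1, the extremes of the fits that left out 1 library. The ratio of the summed, scaled reads was 229.9, with an exact 95% interval of 111 to 573 that covers counting error only. ADAMTS12 lies on chromosome 5 (33523535 to 33892192, minus strand). Of the 7 fibroblast markers, THY1 and PDGFRA were higher in the same libraries, and DCN and FAP were at 0. The others were below the filter. PDGFRB had 0.58 CPM in knockout and 0.13 CPM in parental cells. LUM had 0.134 CPM in knockout and 0.133 CPM in parental cells, and COL1A2 0.047 CPM in knockout and 0.010 CPM in parental cells. The part of other cell types in the rise of ADAMTS12 was not tested.

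ADAMTS9, a protease of versican and aggrecan that also carries a C-terminal GON domain, changed the other way. It had 1.97, 2.04 and 1.48 CPM in knockout replicates 1, 2 and 3, against 23.1, 25.1 and 23.6 CPM in parental replicates 1, 2 and 3. The log2 fold change was -3.69 (SE 0.10), a 12.9-fold fall with an edgeR adjusted p of 1.82e-15. ADAMTS9 lies on chromosome 3 (64515654 to 64688000, minus strand), and 174 of its exon bases overlap the antisense gene ADAMTS9-AS1. ADAMTS9-AS1 had 0, 0 and 0 reads in knockout and 0, 3 and 0 reads in parental replicates 1, 2 and 3. ADAMTS9-AS2, a further antisense gene by name, had 0, 0 and 0 reads in knockout and 4, 5 and 1 reads in parental replicates 1, 2 and 3. Neither was tested.

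In parental cells ADAMTS9 ranked 3 among the ADAMTS genes per kilobase, with 19.5% of their summed level, and in knockout cells it ranked 7 with 1.66%. ADAMTS12 ranked 3 in knockout cells with 16.7% of that sum and 10 in parental cells with 0.066%. ADAMTS15 and ADAMTS10 ranked 1 and 2 in both groups, at 2.78 ± 0.19 and 2.67 ± 0.15 CPM per kilobase in knockout and 3.25 ± 0.19 and 3.08 ± 0.23 CPM per kilobase in parental cells (SD, n = 3 each), so their order is within the spread between libraries. Summed over the 19 genes, the ADAMTS level was 68.6 ± 1.7 CPM in knockout and 79.4 ± 2.1 CPM in parental cells, and the knockout libraries (66.8 to 70.1 CPM) were all below the parental ones (77.3 to 81.4 CPM). The summed ADAM level was 638.5 ± 17 CPM in knockout and 635 ± 15 CPM in parental cells, with overlapping libraries. These sums are descriptions and were not tested.

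**Figure D3:**
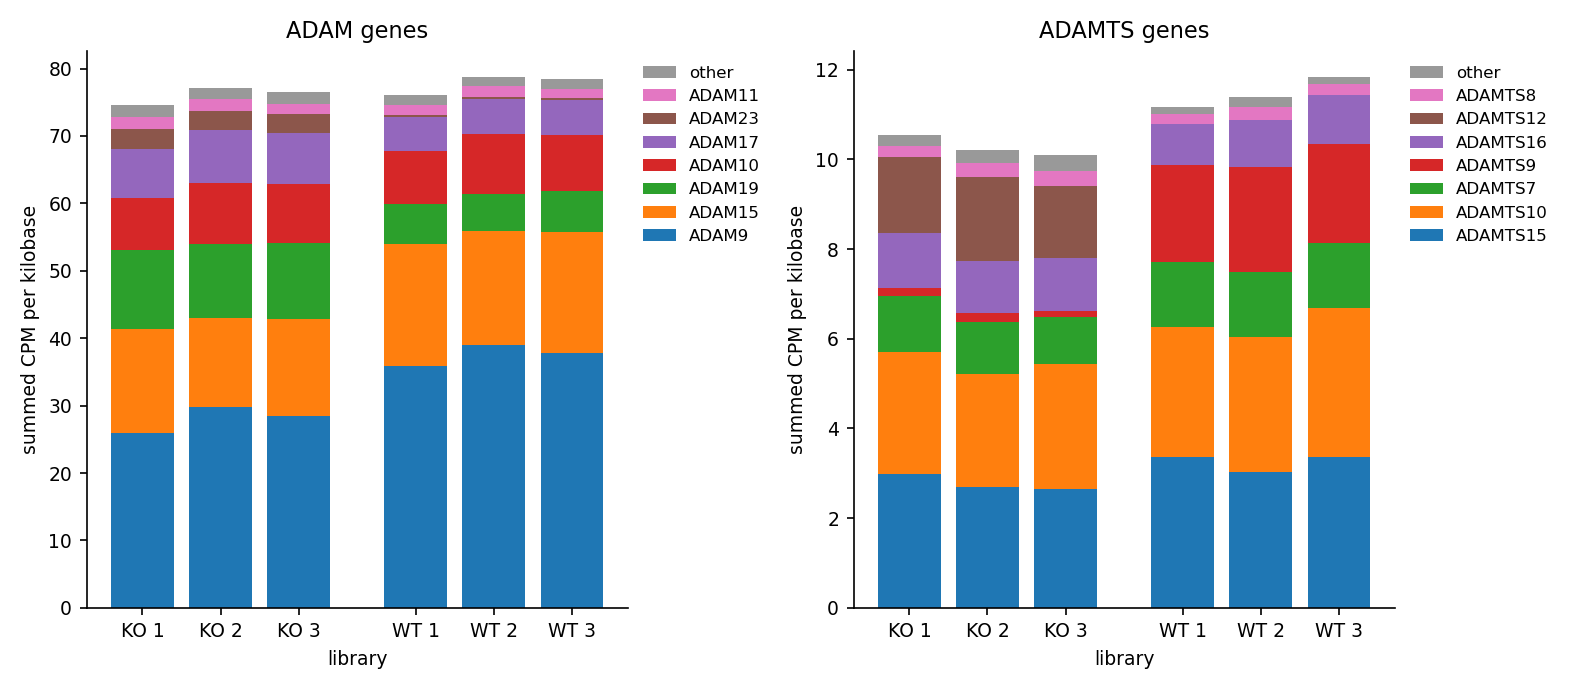
Summed CPM per kilobase of gene length in each library for the ADAM genes (left) and the ADAMTS genes (right), with the 7 highest genes of each in colour, all others in grey, and knockout libraries left of parental ones. In knockout libraries ADAMTS12 holds 16.7% and ADAMTS9 1.66% of the ADAMTS sum, against 0.066% and 19.5% in parental libraries, while the ADAM sum is 76.1 ± 1.3 in knockout and 77.8 ± 1.4 CPM per kilobase in parental cells (SD, n = 3 each).

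The other proteases of versican and aggrecan were ADAMTS1, ADAMTS15 and ADAMTS8 among the tested members. ADAMTS1 had 13, 29 and 18 reads in knockout replicates 1, 2 and 3, against 2, 2 and 6 reads in parental replicates 1, 2 and 3. These few reads gave 0.55 ± 0.20 CPM in knockout and 0.10 ± 0.071 CPM in parental cells (SD, n = 3 each) and a log2 fold change of 2.37 (SE 0.47, edgeR adjusted p 4.82e-04). The log2 fold change was 3.07 without parental replicate 3, and 2.08 to 3.07 over the fits that left out 1 library. ADAMTS15 had 16.99, 15.33 and 15.04 CPM in knockout replicates 1, 2 and 3, against 19.1, 17.2 and 19.1 CPM in parental replicates 1, 2 and 3, which do not overlap but come close. Its log2 fold change was -0.22 (SE 0.074, edgeR adjusted p 0.0203), and the call was lost without knockout replicate 2 (-0.20), knockout replicate 3 (-0.19), parental replicate 1 (-0.20) or parental replicate 3 (-0.21). ADAMTS8 had 1.24 ± 0.14 CPM in knockout and 1.00 ± 0.10 CPM in parental cells and did not pass the threshold (log2 fold change 0.30, SE 0.20). ADAMTS4 had 0, 1 and 3 reads in knockout replicates 1, 2 and 3 and none in parental libraries, and ADAMTS5 and ADAMTS20 had no read.

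ADAMTS7, the closest relative of ADAMTS12 and likewise a protease of cartilage oligomeric matrix protein, had 9.59, 9.15 and 8.12 CPM in knockout replicates 1, 2 and 3, against 11.2, 11.3 and 11.2 CPM in parental replicates 1, 2 and 3. The knockout libraries were all lower, and the log2 fold change was -0.32 (SE 0.084, edgeR adjusted p 0.00499), opposite in sign to that of ADAMTS12. ADAMTS10, which binds fibrillin microfibrils, had 15.5, 14.3 and 15.9 CPM in knockout replicates 1, 2 and 3, against 16.6, 17.1 and 19.02 CPM in parental replicates 1, 2 and 3. Its small fall (-0.21, SE 0.075, edgeR adjusted p 0.0332) did not pass the threshold when knockout replicate 2 (-0.16) or parental replicate 3 (-0.16) was left out, nor in DESeq2 (adjusted p 0.0719, and 0.00871 to 0.182 over all alternatives). Its relative ADAMTS6 had 0.57 ± 0.22 CPM in knockout and 0.40 ± 0.11 CPM in parental cells (SD, n = 3 each), with overlapping groups.

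ADAMTS16 had 7.24, 6.86 and 6.96 CPM in knockout replicates 1, 2 and 3, against 5.40, 6.16 and 6.43 CPM in parental replicates 1, 2 and 3. Its groups did not overlap, but it did not pass the threshold (log2 fold change 0.23, SE 0.099, edgeR adjusted p 0.0729). ADAMTS13, the protease of von Willebrand factor made mainly in liver, had 0.66 ± 0.075 CPM in knockout and 0.59 ± 0.26 CPM in parental cells (SD, n = 3 each). The procollagen N-propeptidases ADAMTS2, ADAMTS3 and ADAMTS14 were below the filter. ADAMTS14 had 5, 4 and 2 reads in knockout replicates 1, 2 and 3, against 0, 1 and 0 reads in parental replicates 1, 2 and 3. ADAMTS3 had 1 read in all, ADAMTS2 and ADAMTS19 had none, and ADAMTS17 and ADAMTS18 had at most 5 reads in a library.

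Of the 5 ADAMTSL genes 2 were tested. ADAMTSL4, whose loss causes displaced eye lenses in humans, had 3.28, 2.49 and 2.38 CPM in knockout replicates 1, 2 and 3, against 1.05, 1.81 and 0.95 CPM in parental replicates 1, 2 and 3. The lowest knockout library was above the highest parental one, and the log2 fold change was 1.12 (SE 0.21, edgeR adjusted p 2.96e-04). Of its exon bases 736 overlap those of ADAMTSL4-AS1 on the opposite strand. ADAMTSL5 had 4.32, 3.82 and 4.12 CPM in knockout replicates 1, 2 and 3, against 3.76, 2.86 and 3.51 CPM in parental replicates 1, 2 and 3. The groups did not overlap, by a narrow margin, and the change did not pass the threshold (log2 fold change 0.27, SE 0.13, edgeR adjusted p 0.106). ADAMTSL1 and ADAMTSL3 had at most 4 reads in a library and ADAMTSL2 had none.

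The genes next to the 13 members past the threshold were examined for regional change, taking the 5 nearest tested protein-coding genes on each side. Over all tested genes 21.3% were called higher and 20.1% lower. On chromosome 2, which holds ADAM23 and ADAM17, 66.8% of 1125 tested genes were called higher, with a median log2 fold change of 0.42. Around ADAMTS12 3 of 10 neighbours were higher, with a median log2 fold change of 0.065. The natriuretic peptide receptor NPR3 (1.98) and the actin-associated RAI14 (0.94) were the largest of these. TARS1 (0.020) and AMACR (-0.078), the nearest tested protein-coding genes on each side of ADAMTS12, did not pass the threshold. Around ADAMTS9 1 of 10 was higher and 2 lower, with a median of 0.026 and a range of -0.39 to 0.54. Around ADAM23 9 of 10 neighbours were higher, with a median of 0.51 and a highest value of 1.11 (ZDBF2), below the 3.29 of ADAM23. Around ADAM17 8 of 10 were higher, with a median of 0.48 and a range of 0.15 to 0.85 that includes ADAM17. Around ADAM19 2 of 10 were higher and 1 lower, with a median of -0.10. Around ADAM9 5 of 10 were higher and 3 lower, with a range of -0.26 to 2.12. Of 10 neighbours each, 1 was higher and 5 lower around ADAM12 (median -0.10) and ADAMTSL4 (median -0.20). For ADAM15 and ADAMTS7 1 was higher and 4 lower, with medians of -0.17 and -0.13. For ADAMTS1 2 were higher and 2 lower, for ADAMTS10 3 and 0, and for ADAMTS15 1 and 1.

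**Figure D4:**
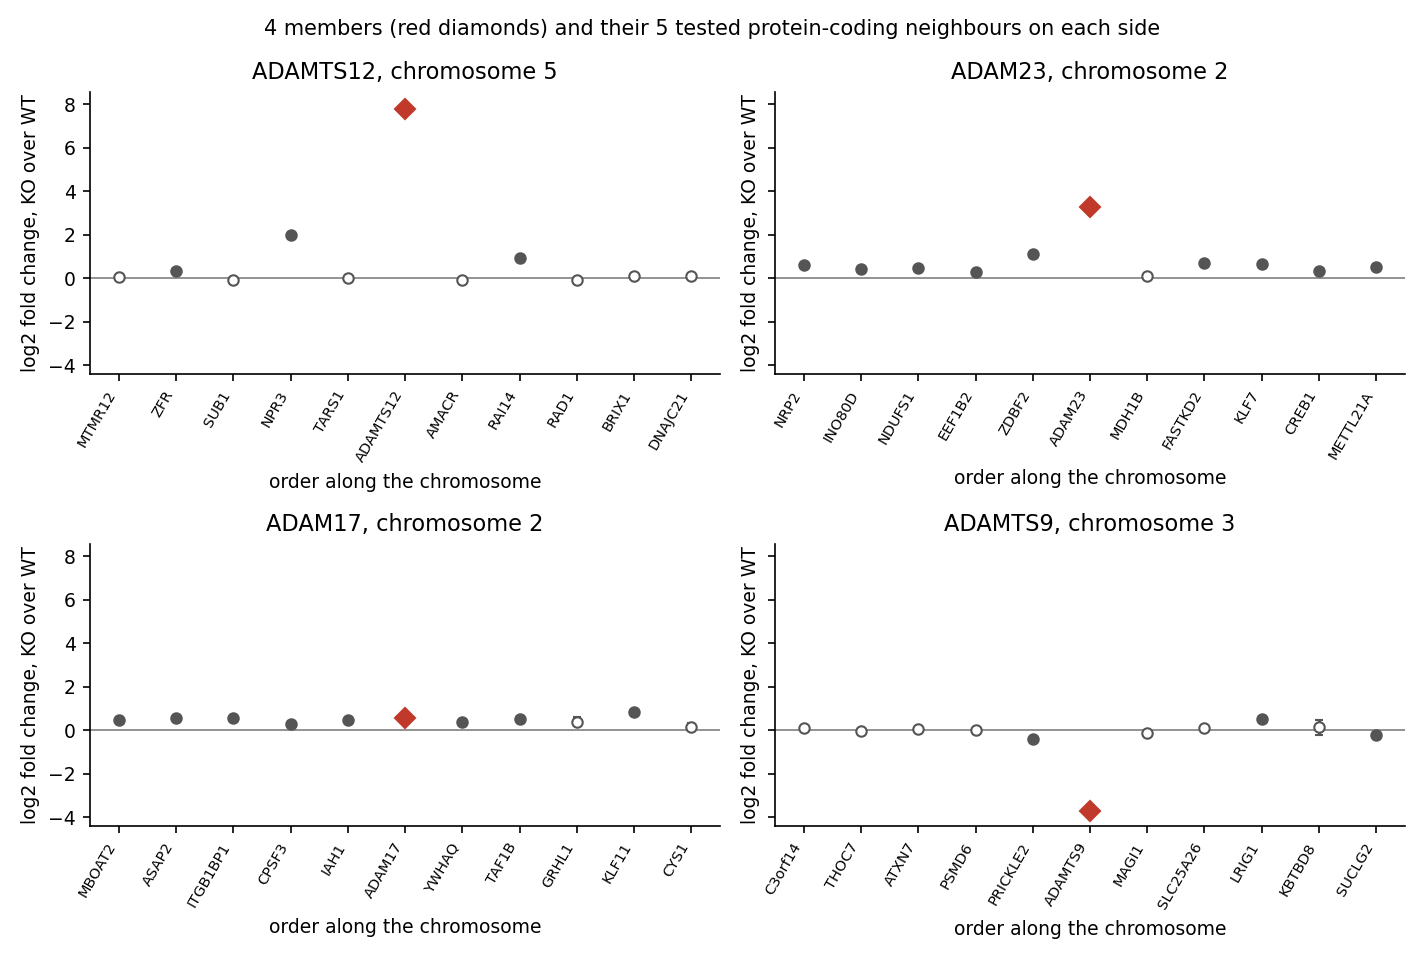
Log2 fold change, RAVER1 knockout over parental, of 4 members (red diamonds) and the 5 nearest tested protein-coding genes on each side in chromosomal order, with SE bars that are mostly smaller than the symbols and filled circles where the edgeR adjusted p was under 0.05. The neighbours of ADAMTS12 and ADAMTS9 have medians of 0.065 and 0.026, and those of ADAM23 and ADAM17, on chromosome 2, have medians of 0.51 and 0.48.

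Partners and inhibitors of these proteases changed in several directions. TspanC8 tetraspanins carry ADAM10 to the cell surface and direct it to its substrates. Of the 6 tested 4 were lower, against 20.1% of all tested genes. The list median was -0.46, against 0.0019 over all tested genes. TSPAN5 fell by 0.86 (SE 0.060), TSPAN10 by 0.56, TSPAN14 by 0.47 and TSPAN33 by 0.44 on the log2 scale, while TSPAN15 (-0.11) and TSPAN17 (0.060) did not pass the edgeR threshold. Of the 7 genes of ADAM17 trafficking and activation, whose median was 0.053, 3 were higher, against 21.3% of all tested genes. The 3 were RHBDF2 (0.33, SE 0.048), an iRhom that escorts ADAM17 out of the endoplasmic reticulum, the kinase PLK2 (0.41) and, on chromosome 2, PDIA6 (0.31). The other iRhom, RHBDF1, stood at -0.15 (SE 0.069, edgeR adjusted p 0.0827).

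Of 10 listed metalloprotease inhibitors 8 were tested, with a median log2 fold change of 0.14. Of these 3 were higher and 1 lower, against 21.3% and 20.1% of all tested genes. TIMP2 had 409 CPM in knockout and 213.5 CPM in parental cells (log2 fold change 0.94, SE 0.043, edgeR adjusted p 2.70e-12). PAPLN, which encodes papilin, a matrix protein related to the ADAMTSL proteins, rose by 1.75 (SE 0.083) and the testican SPOCK1 by 0.71, while SPOCK3 fell by 2.55, with 0.51 CPM in knockout cells against 3.003 CPM in parental cells. TIMP1 (-0.045), TIMP4 (0.096) and the membrane-anchored RECK (0.18) were not past the threshold. TIMP3, the TIMP with the broadest action on ADAM and ADAMTS proteins, was below the filter, at 0.27 CPM in knockout and 0.092 CPM in parental cells.

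Of 30 listed cell-surface substrates of ADAM sheddases 27 were tested, with a median log2 fold change of -0.091. Of these 10 were higher and 11 lower, against 21.3% and 20.1% of all tested genes. E-cadherin (CDH1) had 14.5 CPM in knockout and 66.9 CPM in parental cells (log2 fold change -2.20). CX3CL1, a membrane-bound chemokine, was lower by a log2 fold change of -4.02, and the EGF receptor ligands AREG (-1.12) and TGFA (-1.43) were also lower. Other ligands of that receptor family, named after their values were seen, went both ways. HBEGF (1.16) and EGF (1.28) rose, BTC (-1.06) fell, and EREG (-0.19) and NRG1 (-0.064) did not pass the threshold. EGF was low, at 0.85 CPM in knockout and 0.35 CPM in parental cells. It reached the level of the low-count filter in 3 knockout and 2 parental libraries. TNF had no read in any library.

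Of 18 listed ADAMTS substrates and matrix partners 9 were tested, with a median log2 fold change of 0.45. Of these 7 were higher and 2 lower, against 21.3% and 20.1% of all tested genes. Versican (VCAN), the proteoglycan cut by ADAMTS1, ADAMTS9 and ADAMTS15, had 6.63 CPM in knockout and 676 CPM in parental cells (log2 fold change -6.66, SE 0.070). Fibronectin (FN1) rose by 1.01, the latent TGFB binding protein LTBP1 by 0.59, and the fibrillar collagens COL5A1 by 0.56 and COL1A1 by 0.45. Of the 7 higher genes, FN1, LTBP1 and COL3A1 (2.40, named after its value was seen) lie on chromosome 2. On that chromosome 66.8% of tested genes were called higher. COL3A1, at 0.78 CPM in knockout and 0.14 CPM in parental cells, reached the low-count filter through the knockout libraries alone. The count of 7 is therefore no evidence about the list. COMP, the substrate shared by ADAMTS12 and ADAMTS7, was below the filter, at 0.0084 CPM in knockout cells and no read in parental cells.

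**Figure D5:**
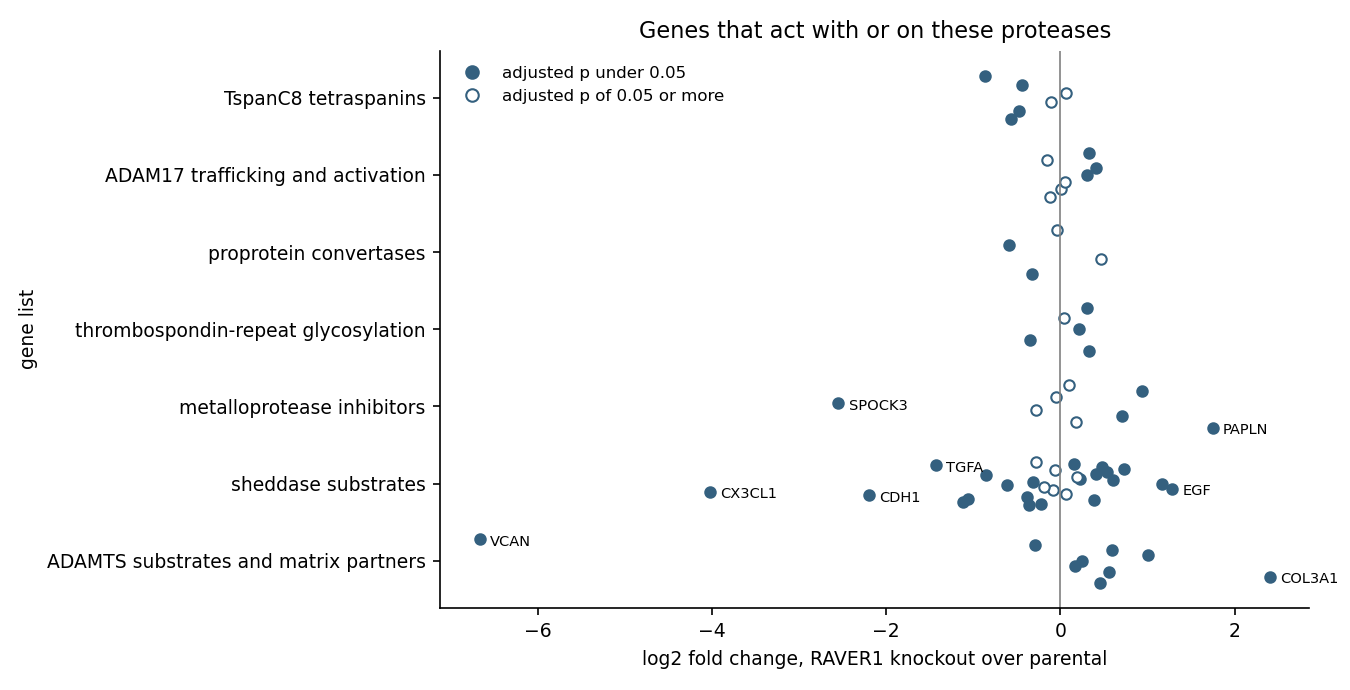
Log2 fold change, RAVER1 knockout over parental, of the tested genes in 7 lists of partners, inhibitors and substrates, with 1 symbol per gene, filled where the edgeR adjusted p was under 0.05; vertical offsets within a list have no meaning, and the genes with the largest changes are named. Of the 6 TspanC8 genes 4 are filled and all 4 lie left of 0, against 20.1% of all tested genes called lower. VCAN (-6.66) lies farthest from 0.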

How the data were processed

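PolyA RNA of 3 RAVER1 knockout and 3 parental A549 libraries was measured by RNA-seq, and the labels' protocols name a stranded mRNA preparation from Illumina. Per the submitters' processing notes, cutadapt 2.8, HISAT2 2.1.0, SAMtools 1.10 and featureCounts 2.0.0 were used with build hg38. The authors deposited raw read counts per gene and library, not normalized, and a gene length. The sources used here give neither the strand setting nor the annotation release of the counting, nor how multiply mapped reads were treated, so reads of overlapping or related genes may be misassigned. All 44 deposited member lengths were within 10% of the GENCODE release 29 exon union. Coordinates and neighbours came from that release, on the same build.

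Counts were fitted in R 4.3.3 with edgeR 4.0.16: filterByExpr kept 16652 genes, TMM scaled the libraries, and a quasi-likelihood F-test without covariates was run for knockout over parental. Benjamini-Hochberg adjustment covered all genes kept, with a threshold of 0.05. Each SE is the fold change divided by the root of its F statistic. CPM used the TMM-scaled library sizes. The fit was tested on simulated data. Alternatives were RLE and upper-quartile scaling, TMM factors without chromosome 2, DESeq2 1.42.0, limma-voom (limma 3.58.1), no filter, a minimum of 1 CPM in 3 libraries, a block on replicate number, and leaving out 1 library at a time. Pairs of libraries within a group were compared to look for copies of the same library. All pairs differed by more than sampling noise (chi-square per degree of freedom 2.41 to 8.86), so none was treated as a copy. All 6 were kept. The largest values were those of knockout replicate 1 with knockout replicates 2 (8.86) and 3 (5.7).

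The members and the gene lists were chosen with earlier results of these data known. Every tested member is named, and those past the threshold or at 1 CPM or more are given in full, by library or as a mean. Of each related list up to 4 genes with the smallest adjusted p are named, with a fixed set of inhibitors, partners and substrates. The neighbouring genes, motifs and promoter windows were chosen after the data were seen.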

Additional observations from a re-analysis of the deposited data

How the results depend on the processing

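Of the 13 members past the threshold, 11 kept their direction and call in every one of the 14 alternatives that tested them, and ADAMTS10 and ADAMTS15 lost theirs in some. ADAMTS1 was not tested with at least 1 CPM in 3 libraries. The number of members past the threshold ran from 11 to 13 over all alternatives, with 11 to 13 when 1 library was left out. ADAMTS10 ran from -0.25 to -0.16 and ADAMTS15 from -0.28 to -0.19 when 1 library was left out. Members not past the threshold that changed sign were ADAM8 (-0.15 to 0.15 with 1 library left out and -0.0074 with upper-quartile scaling), ADAM10 (-0.0077 to 0.097) and ADAMTS13 (-0.062 to 0.55). The difference of the summed ADAM level, 3.20 CPM, became -11.4 CPM with upper-quartile scaling, and its sign therefore depends on the scaling.

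With the replicate number as a block 13 members were past the threshold, as without it, and 8346 genes, against 6886. In their deviations from the group mean, knockout and parental libraries of the same number correlated at 0.129, 0.029 and 0.014 (replicates 1, 2 and 3). Those of different numbers correlated at -0.093 to 0.067, so the value for replicate 1 was the largest. These small correlations do not settle whether the numbers pair the samples, and the main fit did not use the numbers. Members with a few reads per library limit the comparison: in the fit without a filter none of the 13 low-count members passed, and ADAMTS14 had the smallest edgeR adjusted p, 0.0712.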

Other observations

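Of the 4 proprotein convertases, which remove the prodomain of these proteases, 2 were lower, against 20.1% of all tested genes called lower. FURIN had 98.7 CPM in knockout and 123.5 CPM in parental cells (log2 fold change -0.32, SE 0.045, edgeR adjusted p 1.07e-05). PCSK6 had 26.8 CPM in knockout and 40.4 CPM in parental cells (-0.59, SE 0.059), and PCSK7 (-0.035) and PCSK5 (0.47, SE 0.37) were not past the threshold. Of 5 listed genes of thrombospondin-repeat glycosylation, counting homologues, 3 were higher and 1 lower, against 21.3% and 20.1% of all tested genes. POFUT2 (0.30, SE 0.071) and B3GLCT (0.33, SE 0.073), which act in turn to build the O-linked disaccharide of ADAMTS and ADAMTSL repeats, rose. Among the C-mannosyltransferase homologues DPY19L1 fell by 0.35 (SE 0.043), DPY19L3 rose by 0.21 (SE 0.069) and DPY19L4 stood at 0.042.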
